A study of Homo sapiens with 66 samples.

Results

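The transcripts described here are those of 5 myeloid transcription factors, CEBPA, CEBPB, CEBPG, SPI1 and GFI1, which are 5 of the 13331 genes in the count table. They were chosen by name, as the rows whose Ensembl identifiers carry these symbols in GENCODE release 29. The 66 libraries, in 22 groups of 3, hold reads from the 3' ends of mRNA of KBM7, a near-haploid human cell line from chronic myeloid leukaemia. In 9 engineered lines a dTAG, a degron that the compound dTAG7 brings to the cereblon ubiquitin ligase, was fused to a single protein, either CDK9 or one of the Mediator subunits MED14, MED10, MED6, MED28, MED31, MED26, MED12 and MED1. Cells of each line were kept for 6 h in dTAG7 at 500 nM or in DMSO. Wild-type cells, without a tag, had DMSO, dTAG7 (500 nM), THAL-SNS-032 (250 nM) or dBET6 (100 nM), also for 6 h. dBET6 degrades BET bromodomain proteins, THAL-SNS-032 degrades CDK9, and both, like dTAG7, act through cereblon. All groups share the KBM7 background with its BCR-ABL fusion, whether each tagged line is a single clone is not stated in the sources used here, and protein loss was not measured in these data. The 3 libraries of a group came from wells treated in triplicate, so n = 3 for every group and p-values measure the spread between such wells, which may be technical.

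CEBP factors are basic leucine zipper proteins that bind DNA as dimers. CEBPA drives progenitors toward granulocytes and restrains their division, CEBPB takes over when granulocyte output must rise and acts in macrophages, and CEBPG has no activation domain of its own and pairs with other leucine zipper proteins, among them ATF4 in the response to amino acid shortage. SPI1 encodes PU.1, an ETS factor whose level steers progenitors toward the macrophage, granulocyte and B cell lineages. GFI1 is a zinc finger repressor of transcription that neutrophil development needs, and it recruits the demethylase KDM1A with the CoREST complex. Mediator passes signals from such factors to RNA polymerase II, with MED14 as its scaffold, and CDK9 is the kinase that releases paused polymerase.

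On hg38, CEBPA (ENSG00000245848) lies on chromosome 19 at chr19:33299934-33302564 on the minus strand, and CEBPG (ENSG00000153879) lies 70766 bp away at chr19:33373330-33382686 on the plus strand. CEBPB (ENSG00000172216) is at chr20:50190734-50192689 on the plus strand, SPI1 (ENSG00000066336) at chr11:47354860-47378576 on the minus strand and GFI1 (ENSG00000162676) at chr1:92474762-92486876 on the minus strand. CEBPA overlaps the plus-strand genes AC008738.3 and AC008738.5, and CEBPB overlaps the minus-strand CEBPB-AS1. Whether reads were counted by strand is not stated in the sources used here, so reads of these neighbours cannot be told apart from those of CEBPA and CEBPB. No such overlap is annotated for the other 3 genes.

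Promoter sequences are shown as a description of the members, and a link between them and the changes below was not tested. RefSeq windows (GRCh38.p14) of the 250 bases before a transcription start were at hand for 4 of the 5 genes, not for SPI1. Capitals mark motif matches, and positions count back from the first transcribed base. The window of the second of 3 GFI1 starts (chr1:92486100-92486349, minus strand) is outside annotated GENCODE exons. It holds the CEBP palindrome TTGCGCAA at -142 to -135, the ETS core CGGAAG at -26 to -21 and the CCAAT box at -247 to -243. From the other genes only the stretch of 30 bases around a match is printed, since the windows of these starts reach into exons: the TATA box of CEBPA at -30 to -25 (chr19:33302547-33302576, minus strand), that of the second CEBPB start at -29 to -24 (chr20:50190789-50190818, plus strand) and a composite CEBP and ATF site at -42 to -35 of the second CEBPG start (chr19:33374060-33374089, plus strand).
GFI1 window: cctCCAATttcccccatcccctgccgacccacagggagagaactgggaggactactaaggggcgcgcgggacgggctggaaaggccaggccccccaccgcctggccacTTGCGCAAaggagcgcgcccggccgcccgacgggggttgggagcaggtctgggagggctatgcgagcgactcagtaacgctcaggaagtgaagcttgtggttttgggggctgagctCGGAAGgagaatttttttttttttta
CEBPA stretch: cggcctgccgggTATAAAagctgggccggc
CEBPB stretch: acgggccgccctTATAAAtaaccgggctca
CEBPG stretch: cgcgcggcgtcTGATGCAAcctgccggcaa

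Of 35116 RefSeq windows of this length, searched on both strands, the CEBP palindrome TTGCGCAA was found in 0.131%, the wider CEBP pattern TTGCNNAA, which contains it, in 9.05%, and the composite TGATGNAA in 3.14%. The ETS core CGGAAG was in 16.5%, TATAAA in 10.7% and CCAAT in 32%. Also searched were the CRE TGACGTCA (1.65% of windows), the PU.1 site GAGGAAGT (2.17%), the GFI1 core AAATCA (11.6%), the E-box CACGTG (6.34%) and the GATA motif AGATAA (9.17%), none of which was matched in the windows of these 4 genes. A match is a description of letters and says nothing about binding here.

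Each library held 439261 to 4337368 endogenous and 10950 to 72684 spike-in counts. Levels below are CPM on the spike-in scale, for which the spike-in total of a library, brought to the scale of the wild-type DMSO libraries, stands in for its size, so that a fall of all mRNA is seen as a fall. Called means an adjusted p under 0.05 in edgeR's quasi-likelihood test over all tested genes, errors are SE, and the letters A, B and C name the libraries of a group in the order in which their values are given. TMM, which assumes that most genes do not change, gives the change relative to the bulk of genes. The ratio of endogenous to spike-in counts, as a percentage of DMSO in the same line, was 11.3 with dBET6, 17.6 with THAL-SNS-032, 19.2 in the CDK9 line and 63.2 in the MED14 line, and lay between 82.3 and 106 in the other 8 comparisons. In bulk RNA, fewer living cells and less RNA per cell cannot be told apart. Replicates were compared by the chi-square per degree of freedom between their counts, which is 1 for counting error alone. MED6 line dTAG7 A stood apart, with 18.4 and 14.8 against 2.15 between B and C. So did MED12 line DMSO B (8.63 and 8.46 against 1.803) and MED12 line dTAG7 C (4.90 and 5.97 against 1.34). MED31 line dTAG7 A, MED31 line DMSO A and MED26 line DMSO A did so to a lesser degree (3.73 to 4.495 against at most 2.07). In wild-type cells the value between B and C was 5.26 with dBET6 and 4.62 with THAL-SNS-032. Between A and B it was 2.94 and 2.97, and between A and C 2.69 and 1.75. In wild-type DMSO libraries 5 of 6 myeloid progenitor markers, led by MYB (mean 577 CPM) and CD34 (142 CPM), summed to between 739.6 and 843 CPM. KIT was at 50.9, CD33 at 26.8 and MPO at 3.32 CPM. Of erythroid and megakaryocyte markers 4 of 9 summed to between 173.1 and 195.7 CPM, nearly all of it TFRC (182 CPM). GATA1, ITGA2B and HBG2 were at 1.57, 1.40 and 0.297 CPM. Lymphoid markers, 5 of 7, summed to between 23.8 and 31.6 CPM. Epithelial and fibroblast markers, 2 of 5, summed to between 28.85 and 37.5 CPM, and 3 haematopoietic markers to between 586 and 807 CPM. Of the 10 granulocyte and monocyte markers, 2 were in the table, LYZ and ITGAM, which summed to between 4.76 and 6.05 CPM, and the other 8, ELANE, CD14 and CSF3R among them, are not analysed here. Every gene in the deposited table is above 0 in at least 20 libraries.

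With DMSO alone, CEBPA had the widest range of mean levels between lines. Its mean level ran from 59.5 CPM in the CDK9 line to 173 CPM in the MED26 line, a ratio of 2.91, against 1.18 for CEBPB, 1.42 for CEBPG, 1.90 for SPI1 and 1.56 for GFI1. The order for CEBPA from low to high was CDK9, MED31, MED6, MED14, MED12, MED10 and MED1 lines, wild type, then the MED28 and MED26 lines. The libraries of neighbours in that order overlapped in 7 of 9 steps, the exceptions being MED6 to MED14 and MED28 to MED26. For the other 4 genes the libraries of all 9 neighbouring pairs overlapped.

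**Figure D1:**
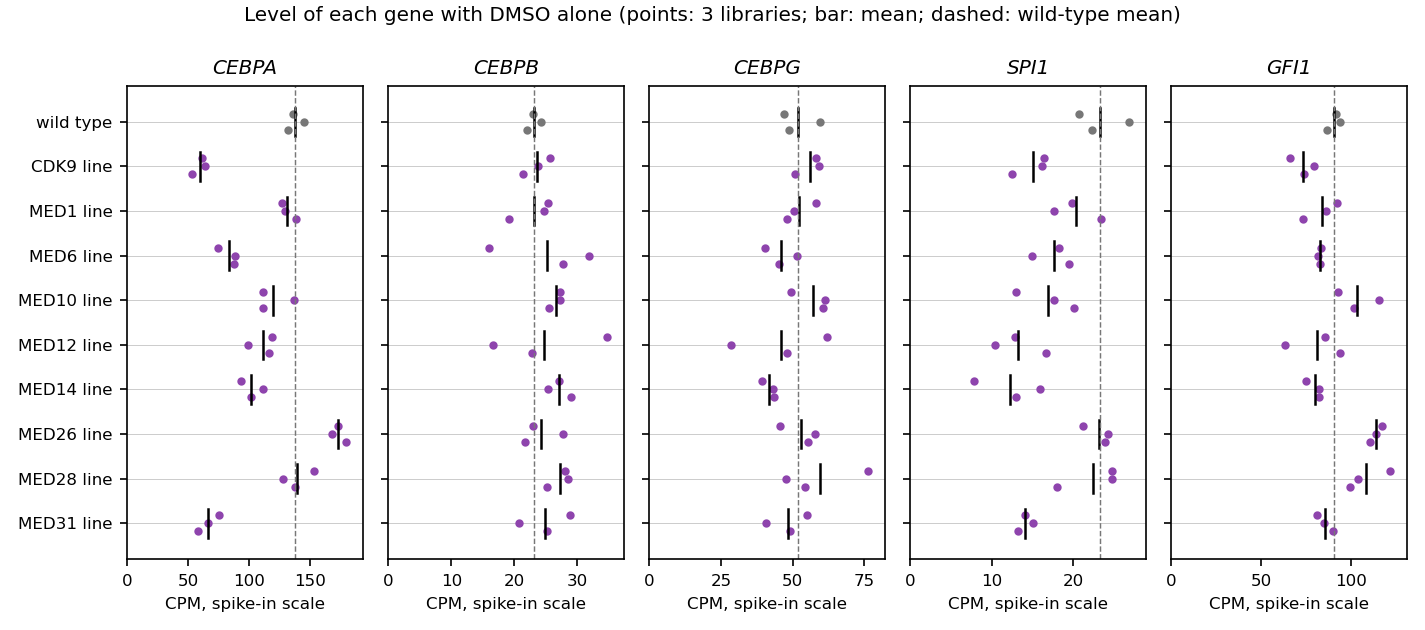
Level of each gene with DMSO alone in wild type and the 9 tagged lines, in CPM on the spike-in scale, with each point a library, the bar the mean of 3 and the dashed line the wild-type mean. CEBPA ran from 59.5 CPM in the CDK9 line to 173 CPM in the MED26 line, while CEBPB stayed between 23.0 and 27.2 CPM.

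Wild-type DMSO libraries held CEBPA at 136, 145 and 132 CPM. In the CDK9 line the values were 61.2, 63.98 and 53.2 CPM, in the MED31 line 75.4, 66.2 and 58.04 CPM and in the MED6 line 74.2, 88.6 and 87.8 CPM, all below every wild-type library. The level was 2.33-fold lower than in wild type in the CDK9 line (log2 -1.22 ± 0.14 SE, edgeR adjusted p = 1.02e-08), 2.07-fold lower in the MED31 line (log2 -1.05 ± 0.14, adjusted p = 1.69e-08) and 1.64-fold lower in the MED6 line (log2 -0.71 ± 0.14, adjusted p = 0.00134). These 3 calls held under TMM (log2 -1.15 ± 0.11, -1.13 ± 0.10 and -0.70 ± 0.10). Of all 12515 tested genes, 1.14% were lower than in wild type in the CDK9 line, 2.29% in the MED31 line and 0.208% in the MED6 line, and under TMM 0.985%, 4.1% and 0.279%. In the MED14 line CEBPA was also lower, at 92.9, 111 and 101 CPM (log2 -0.43 ± 0.13, adjusted p = 0.0232), where 8.98% of genes were lower. That call ended under TMM (log2 -0.23 ± 0.10, adjusted p = 0.193; 3.21% of genes lower) and when any of MED14 DMSO A or C or wild-type DMSO A or B was left out (log2 -0.44 to -0.37, adjusted p from 0.0536 to 0.135). In the MED26 line, at 173, 168 and 179 CPM, CEBPA lay above all wild-type libraries, with log2 0.33 ± 0.13 on the spike-in scale (adjusted p = 0.379), and was called higher under TMM (log2 0.36 ± 0.10, adjusted p = 0.0427), where 0.814% of genes were higher.

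SPI1 was at 20.8, 26.8 and 22.3 CPM in wild type, the highest mean of the 10 lines. It was lower in the MED14 line, at 7.81, 15.9 and 13.02 CPM (log2 -0.90 ± 0.22, adjusted p = 0.00289), in the MED12 line, at 12.8, 10.4 and 16.6 CPM (log2 -0.81 ± 0.22, adjusted p = 0.00799), and in the MED31 line, at 14.1, 15.1 and 13.2 CPM (log2 -0.71 ± 0.22, adjusted p = 0.0256). None of these libraries reached the lowest wild-type library. All 3 differences were called under TMM as well (adjusted p = 0.0164, 0.00344 and 0.00334). In the MED12 line 4.42% of genes were lower than in wild type, and 5.7% under TMM. These calls ended when 1 library was left out: without MED14 DMSO A the value was log2 -0.66, adjusted p = 0.0675, without MED12 DMSO B or wild-type DMSO B -0.71 to -0.66, adjusted p from 0.0543 to 0.0688, and without any of the 3 MED31 libraries or wild-type DMSO B or C -0.76 to -0.61, adjusted p from 0.0516 to 0.125. Without MED31 DMSO A, which stood apart, the CEBPA difference in that line was log2 -1.15 (adjusted p = 6.43e-08) and that of SPI1 -0.70 (adjusted p = 0.0737). CEBPB, CEBPG and GFI1 were called in none of the 9 lines, by edgeR on either scale or by DESeq2. On the spike-in scale 1 of these tests passed an unadjusted threshold of 0.05, that of GFI1 in the MED26 line alone (log2 0.33 ± 0.15). Over all 45 tests of a gene in a line, 7 were called, all lower than in wild type, and 4 without wild-type DMSO B. The share of all genes called lower was 0.208% in the MED1 line, 0.192% in the MED10 line, 0.392% in the MED26 line and 0.0799% in the MED28 line, in which no member was called.

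Degraders of CDK9 or BET proteins lowered all 5 transcripts, from 10.9-fold for CEBPB with THAL-SNS-032 to 54.6-fold for CEBPA with dBET6. CEBPA, at 136, 145 and 132 CPM in wild-type DMSO libraries, was at 1.22, 2.12 and 4.42 CPM with dBET6 and 4.68, 4.03 and 7.02 CPM with THAL-SNS-032. In the CDK9 line it went from 61.2, 63.98 and 53.2 CPM with DMSO to 1.29, 1.64 and 4.65 CPM with dTAG7. No treated library came near a DMSO library. The falls were 54.6-fold with dBET6 (log2 -5.77 ± 0.19, adjusted p = 5.57e-36), 27.1-fold with THAL-SNS-032 (log2 -4.76 ± 0.18, adjusted p = 9.02e-33) and 26.0-fold in the CDK9 line (log2 -4.70 ± 0.22, adjusted p = 2.92e-28). Nearly every gene fell in these comparisons, 97.1% of 12515 with dBET6, 96.2% with THAL-SNS-032 and 95.3% in the CDK9 line, so that 5 of 5 members is near the background. The median log2 change of all genes was -3.67, -2.86 and -2.93. The dBET6 and THAL-SNS-032 comparisons share their DMSO libraries. Treated libraries held few reads of CEBPA, 44 with dBET6, 78 with THAL-SNS-032 and 34 in the CDK9 line, which limits the precision. With 1 library left out its log2 change ran from -6.30 to -5.455, from -4.99 to -4.56 and from -5.40 to -4.08, in that order.

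**Figure D2:**
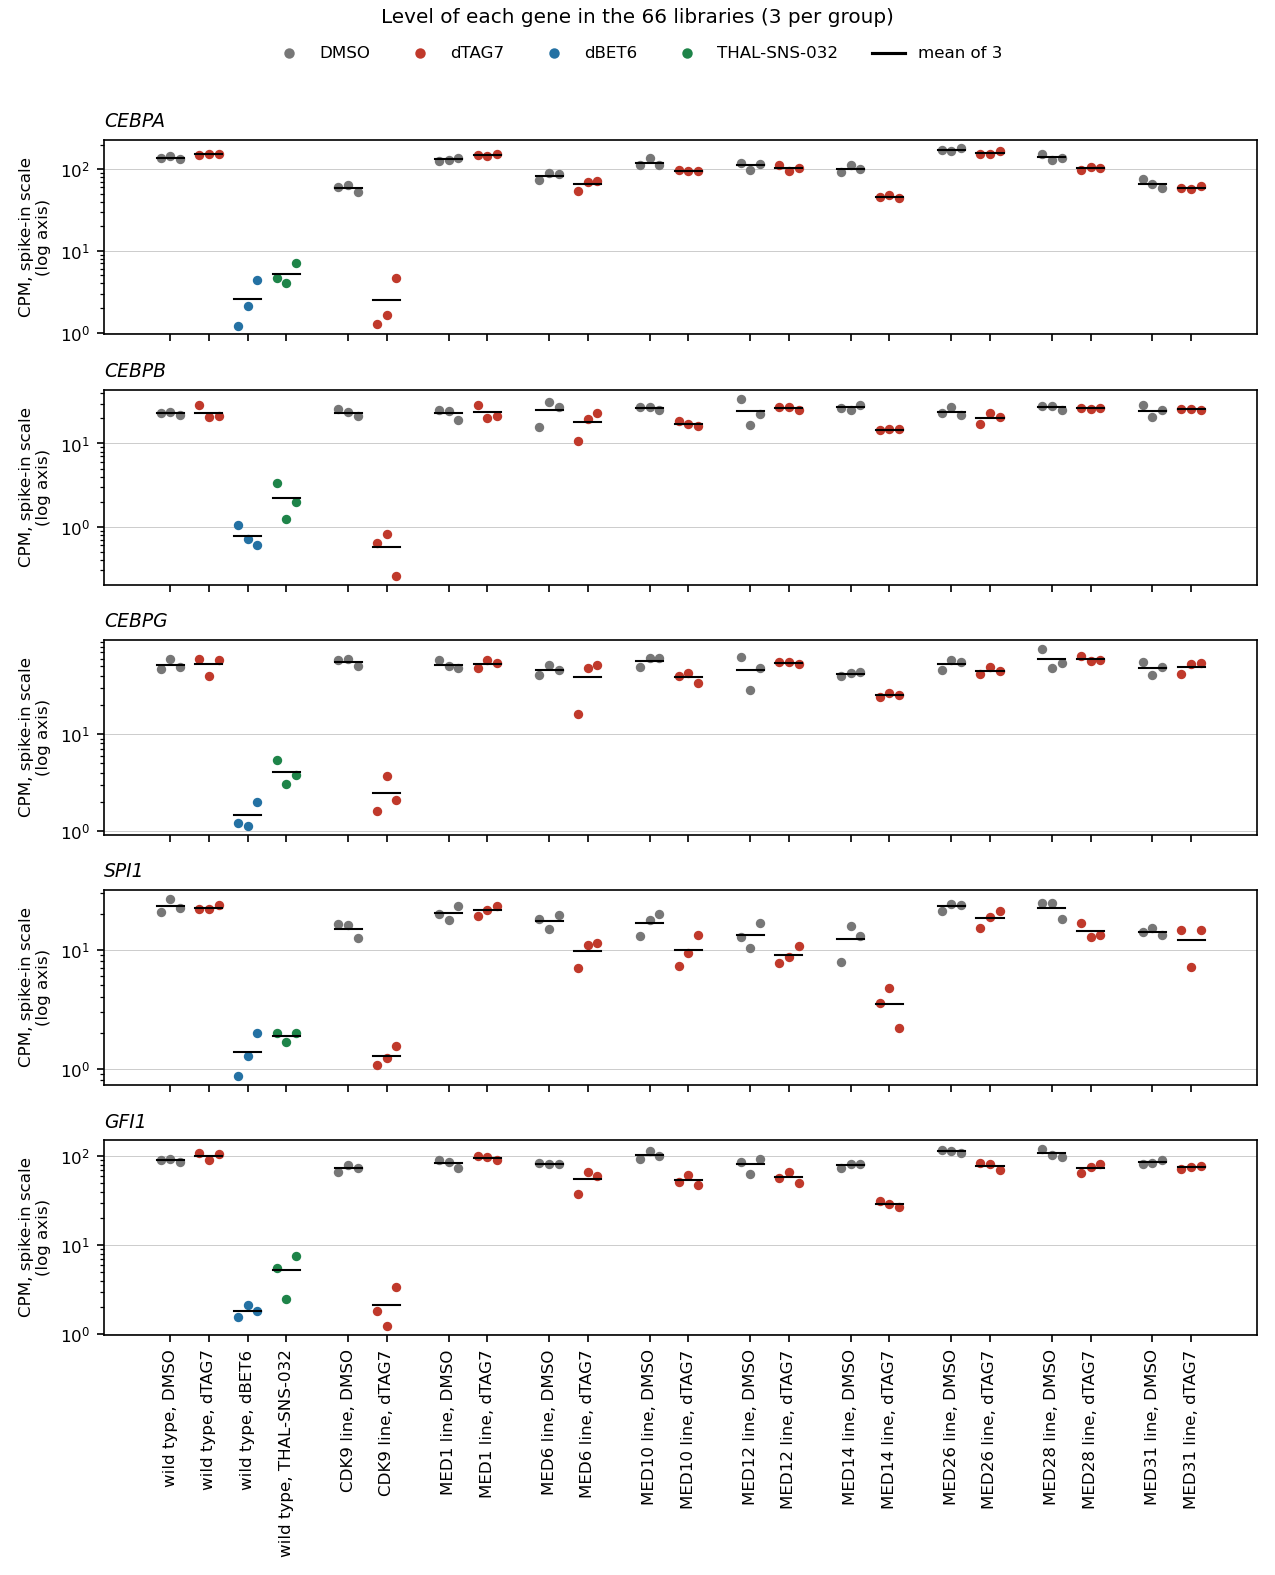
Level of each of the 5 genes in every library, in CPM on the spike-in scale on a log axis, by line and treatment, with each point a library and the bar the mean of 3. The libraries of dBET6, THAL-SNS-032 and the CDK9 line with dTAG7 lie far below their DMSO libraries for all 5 genes, and those of the MED14 line with dTAG7 lie below their own DMSO libraries.

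GFI1 followed the same course. It was at 91.4, 93.8 and 86.5 CPM in wild-type DMSO libraries, 1.56, 2.12 and 1.81 CPM with dBET6 and 5.57, 2.498 and 7.52 CPM with THAL-SNS-032, and went from 66.2, 79.4 and 73.98 to 1.82, 1.23 and 3.36 CPM in the CDK9 line. The falls were 48.01-fold (log2 -5.58 ± 0.23), 18.8-fold (log2 -4.23 ± 0.20) and 34.1-fold (log2 -5.09 ± 0.24), with adjusted p = 4.12e-32, 2.79e-28 and 1.77e-28. Relative to the bulk of genes, CEBPA and GFI1 still fell in all 3 comparisons. Under TMM the log2 change of CEBPA was -2.21 ± 0.18 with dBET6, -1.95 ± 0.15 with THAL-SNS-032 and -1.88 ± 0.21 in the CDK9 line, and that of GFI1 was -2.02 ± 0.21, -1.44 ± 0.17 and -2.26 ± 0.21, each with an adjusted p of at most 8.81e-10. Under TMM 23.2% of genes fell with dBET6, 16% with THAL-SNS-032 and 27% in the CDK9 line, beside 4 of the 5 members in each.

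CEBPB was at 22.9, 24.2 and 22.01 CPM in wild-type DMSO libraries, 1.04, 0.706 and 0.603 CPM with dBET6 and 3.34, 1.25 and 2.01 CPM with THAL-SNS-032. In the CDK9 line it went from 25.6, 23.7 and 21.3 to 0.643, 0.821 and 0.258 CPM, where the 3 treated libraries held 9 reads of CEBPB in all. The falls were 28.01-fold with dBET6 (log2 -4.81 ± 0.32), 10.9-fold with THAL-SNS-032 (log2 -3.45 ± 0.28) and 38.1-fold in the CDK9 line (log2 -5.25 ± 0.36). Under TMM the fall held with dBET6 (log2 -1.28 ± 0.35, adjusted p = 0.00242) and in the CDK9 line (log2 -2.46 ± 0.38, adjusted p = 2.65e-07), and the THAL-SNS-032 value was -0.66 ± 0.27 (adjusted p = 0.0592), not called. CEBPG, the partner of ATF4, was at 47.1, 59.6 and 48.8 CPM in wild-type DMSO libraries, 1.22, 1.13 and 2.01 CPM with dBET6 and 5.34, 3.05 and 3.76 CPM with THAL-SNS-032, and went from 58.3, 59.2 and 50.7 to 1.61, 3.696 and 2.07 CPM in the CDK9 line. It fell 35.7-fold, 13.0-fold and 26.2-fold, and under TMM by a log2 change of -1.60 ± 0.32, -0.89 ± 0.25 and -1.89 ± 0.29 (adjusted p = 3.28e-05, 0.00389 and 2.12e-07).

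SPI1 fell in all 3 comparisons on the spike-in scale and in 1 of them under TMM. It was at 20.8, 26.8 and 22.3 CPM in wild-type DMSO libraries, 0.868, 1.27 and 2.01 CPM with dBET6 and 2.004, 1.67 and 2.01 CPM with THAL-SNS-032, and went from 16.4, 16.2 and 12.5 to 1.07, 1.23 and 1.55 CPM in the CDK9 line. These are falls of 16.7-fold (log2 -4.06 ± 0.28), 12.2-fold (log2 -3.61 ± 0.28) and 11.7-fold (log2 -3.54 ± 0.33). Under TMM only the THAL-SNS-032 fall of SPI1 was called (log2 -0.81 ± 0.29, adjusted p = 0.02699), while the values with dBET6 and in the CDK9 line were -0.51 ± 0.31 (adjusted p = 0.193) and -0.72 ± 0.35 (adjusted p = 0.0845). Treated libraries held few reads of SPI1, 24, 29 and 19 over the 3 libraries of each group, which limits the precision.

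In the MED14 line, dTAG7 lowered all 5 transcripts, with larger log2 changes for SPI1 and GFI1 than for the CEBP genes. SPI1 went from 7.81, 15.9 and 13.02 CPM with DMSO to 3.54, 4.79 and 2.18 CPM, GFI1 from 74.8, 82.4 and 82.2 to 31.3, 29.2 and 26.6 CPM and CEBPA from 92.9, 111 and 101 to 45.7, 48.4 and 43.8 CPM. CEBPB went from 27.1, 25.4 and 28.9 to 14.4, 14.8 and 14.8 CPM and CEBPG from 39.3, 43.1 and 43.4 to 24.2, 26.8 and 25.4 CPM. The libraries of the 2 treatments did not overlap for any of the 5 genes. The share of all genes without overlap was not counted, here or in any other comparison. SPI1 fell 3.72-fold (log2 -1.90 ± 0.29, adjusted p = 7.41e-08), GFI1 2.74-fold (log2 -1.46 ± 0.16, adjusted p = 2.17e-11) and CEBPA 2.23-fold (log2 -1.16 ± 0.14, adjusted p = 2.82e-10). CEBPB fell 1.85-fold (log2 -0.89 ± 0.20, adjusted p = 1.58e-04) and CEBPG 1.66-fold (log2 -0.73 ± 0.22, adjusted p = 0.00366). Of all genes 63.3% fell, with a median log2 change of -0.69. Relative to the bulk of genes under TMM, where 16.6% fell, SPI1 (log2 -1.21 ± 0.27, adjusted p = 3.56e-04), GFI1 (-0.77 ± 0.12, adjusted p = 1.30e-06) and CEBPA (-0.47 ± 0.11, adjusted p = 4.53e-04) still fell. CEBPB (-0.20 ± 0.18, adjusted p = 0.4205) and CEBPG (-0.04 ± 0.18, adjusted p = 0.879) were then not called.

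GFI1 was the member called in the most Mediator lines. It fell in 9 of the 12 comparisons, against 6 for SPI1 and 5 for each CEBP gene, and in 8 under TMM, against 2 for SPI1, 5 for CEBPA, 2 for CEBPB and 3 for CEBPG. Read numbers differed between the members, so these counts of calls do not rank the sizes of their falls. Median counts per library were 306 for CEBPA, 246 for GFI1, 147 for CEBPG, 71.5 for CEBPB and 46 for SPI1. The 9 include dBET6, THAL-SNS-032 and the CDK9 and MED14 lines, where 97.1%, 96.2%, 95.3% and 63.3% of all genes fell. In the MED10, MED6, MED28, MED12 and MED26 lines 19%, 18.4%, 4.07%, 3.4% and 2.88% of all genes fell. Over the 8 under TMM the share ran from 1.4% in the MED26 line to 27% in the CDK9 line. How many genes fell in 9 of the 12 comparisons was not counted. In the MED10 line GFI1 went from 92.97, 116 and 102 to 51.8, 62.05 and 47.5 CPM (log2 -0.96 ± 0.16, adjusted p = 3.06e-06), with no overlap, and the fall held under TMM (log2 -0.76 ± 0.12, adjusted p = 1.27e-06). In the MED28 line it went from 121, 104 and 99.5 to 64.3, 75.5 and 82.3 CPM (log2 -0.54 ± 0.15, adjusted p = 0.0203) and in the MED26 line from 117, 114 and 110.4 to 83.95, 82.02 and 70.2 CPM (log2 -0.52 ± 0.15, adjusted p = 0.0331), without overlap in either line. In the MED12 line, from 85.6, 63.5 and 94.1 to 57.2, 66.2 and 50.5 CPM, the libraries overlapped through DMSO B, which stood apart (log2 -0.49 ± 0.15, adjusted p = 0.0493). TMM kept these 3 calls (adjusted p = 0.002205, 0.0466 and 0.00137). In the MED6 line GFI1 went from 83.3, 81.5 and 82.6 to 37.5, 67.2 and 60.8 CPM without overlap (log2 -0.59 ± 0.16, adjusted p = 0.00544), with the lowest value in dTAG7 A, which stood apart, and TMM did not call it (log2 -0.34 ± 0.12, adjusted p = 0.0693).

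These smaller falls of GFI1 lay near the threshold, and each call ended when 1 library was left out, while the values stayed below 0. The MED28 call ended without DMSO A, dTAG7 A or dTAG7 B (log2 -0.56 to -0.45, adjusted p from 0.0631 to 0.155), and the MED26 call without any 1 of its 6 libraries (log2 -0.57 to -0.46, adjusted p from 0.0707 to 0.157). The MED12 call ended without DMSO A, DMSO C, dTAG7 A or dTAG7 C, which stood apart (log2 -0.48 to -0.37, adjusted p from 0.119 to 0.264), and held without DMSO B (log2 -0.64), and the MED6 call without dTAG7 A (log2 -0.36, adjusted p = 0.143). The MED10 and MED14 calls of GFI1 did not change when any 1 library was left out.

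The other members were called in fewer Mediator lines. In the MED10 line SPI1 went from 12.9, 17.7 and 20.1 to 7.26, 9.33 and 13.2 CPM (log2 -0.76 ± 0.24, adjusted p = 0.0161), with overlap. CEBPB went from 27.3, 27.2 and 25.6 to 18.5, 17.3 and 16.1 CPM (log2 -0.63 ± 0.21, adjusted p = 0.0257) and CEBPG from 49.5, 61.5 and 60.6 to 39.9, 42.9 and 33.8 CPM (log2 -0.58 ± 0.22, adjusted p = 0.0474), both without overlap. CEBPA, from 111, 137 and 111 to 98.3, 94.2 and 93.8 CPM without overlap, was not called (log2 -0.33 ± 0.14, adjusted p = 0.0735). Thus 4 of 5 members fell in the MED10 line, where 19% of genes fell, and GFI1 alone under TMM, where 10% fell. Leaving out 1 library ended the call of SPI1 (DMSO B, DMSO C or dTAG7 A, log2 -0.74 to -0.57, adjusted p from 0.05096 to 0.141), of CEBPB (DMSO A, DMSO B, dTAG7 B or dTAG7 C, log2 -0.63 to -0.57, adjusted p from 0.0529 to 0.112) and of CEBPG (any but DMSO A, log2 -0.65 to -0.48, adjusted p from 0.0533 to 0.204).

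**Figure D3:**
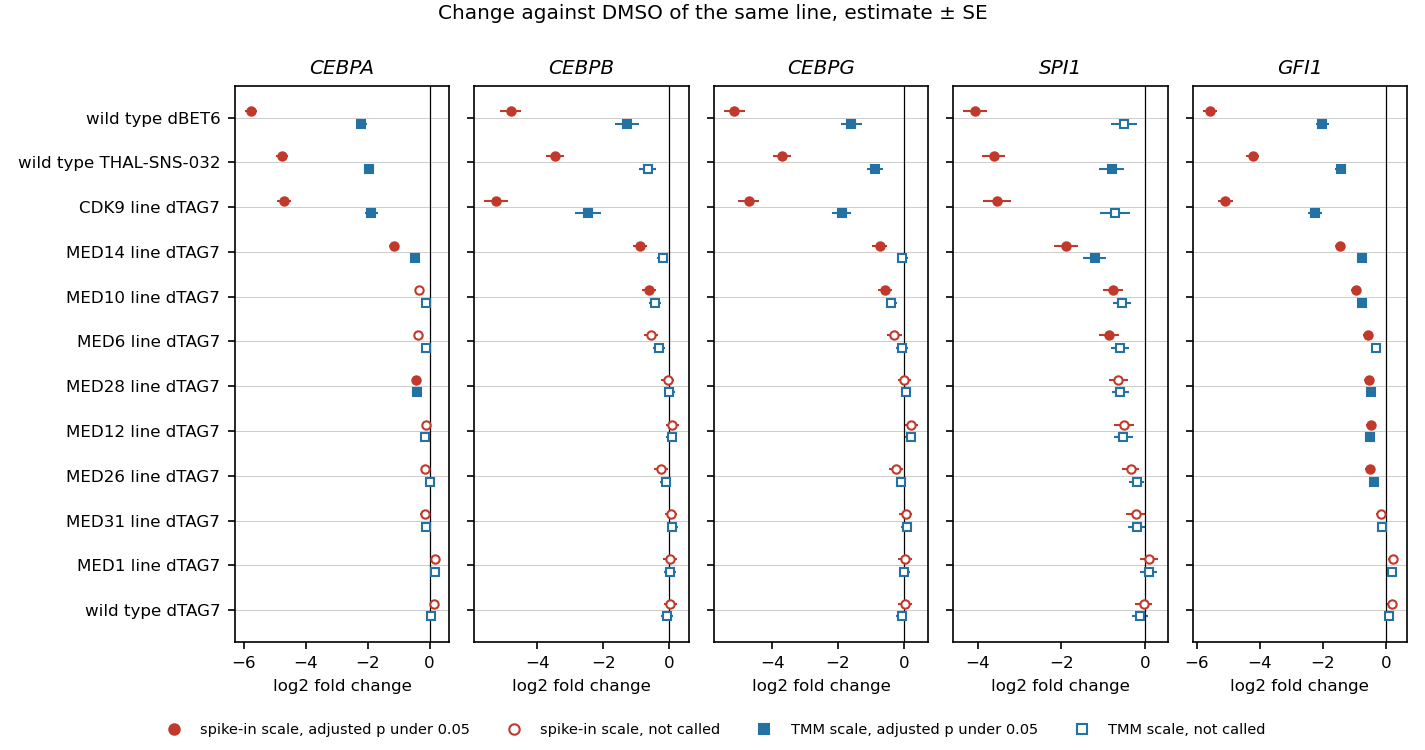
Log2 fold change of each gene with treatment against DMSO of the same line, with SE, for the 12 comparisons, on the spike-in scale (circles) and under TMM (squares), filled where the adjusted p was under 0.05. GFI1 has filled circles in 9 rows, and no gene has a value called above 0.

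In the MED6 line SPI1 went from 18.3, 14.97 and 19.5 to 7.05, 10.9 and 11.4 CPM (log2 -0.87 ± 0.24, adjusted p = 0.00725), without overlap. The call ended without dTAG7 A, which stood apart, or DMSO C (log2 -0.77 to -0.66, adjusted p from 0.0592 to 0.107). CEBPG in this line lay lowest in dTAG7 A, with 16.1, 48.1 and 51.6 CPM against 40.5, 51.6 and 45.4 CPM with DMSO, and the log2 change of -0.29 ± 0.22 (adjusted p = 0.3602) became 0.11 without it, not called either way. CEBPA (log2 -0.37 ± 0.14, adjusted p = 0.0532) and CEBPB (log2 -0.55 ± 0.21, adjusted p = 0.0532) were just short of the threshold, and leaving out DMSO A, dTAG7 B or dTAG7 C brought both below it (CEBPA log2 -0.44 to -0.43, adjusted p from 0.0373 to 0.0487, CEBPB log2 -0.77 to -0.65, adjusted p from 0.0115 to 0.0371). Without dTAG7 A, which stood apart, both moved away from it, to log2 -0.25 (adjusted p = 0.3203) for CEBPA and -0.26 (adjusted p = 0.504) for CEBPB. With 2 of 5 members, GFI1 and SPI1, against 18.4% of genes on the spike-in scale and 0 of 5 against 3.66% under TMM, the MED6 line falls depended on the scale. At an unadjusted p under 0.05 TMM had 2 members, and DESeq2 on the spike-in scale called 3.

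In the MED28 line CEBPA joined GFI1, going from 153, 128 and 138 to 96.3, 107 and 103 CPM without overlap (log2 -0.45 ± 0.13, adjusted p = 0.03397; TMM log2 -0.40 ± 0.10, adjusted p = 0.00651). Of all genes 4.07% fell there, and 4.34% under TMM, beside 2 of 5 members on both scales. The CEBPA call ended on the spike-in scale without any library but DMSO B (log2 -0.48 to -0.38, adjusted p from 0.0737 to 0.198). SPI1 in the MED28 line went from 24.7, 24.7 and 18.01 to 16.8, 12.8 and 13.2 CPM without overlap and was not called (log2 -0.65 ± 0.22, adjusted p = 0.07997). In the MED12 line GFI1 alone was called, where 3.4% of genes fell (5.7% under TMM), and in the MED26 line GFI1 alone, where 2.88% fell (1.4% under TMM). CEBPB and CEBPG were called in neither line and their libraries overlapped, for example CEBPB at 23.02, 27.8 and 21.8 CPM with DMSO and 17.2, 23.01 and 20.8 CPM with dTAG7 in the MED26 line.

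No member was called in the MED31 line, the MED1 line or wild-type cells with dTAG7, by edgeR on either scale or by DESeq2, and none of these 15 tests had an unadjusted p under 0.05 in edgeR on the spike-in scale. In the MED31 line 2.61% of genes fell (3.02% under TMM), in the MED1 line 0% (0.00776% under TMM) and in wild-type cells 0% on both scales. At an unadjusted p under 0.05 edgeR had 394 of 12515 genes in the MED1 line and 490 in wild-type cells, and DESeq2 called 0 and 0. CEBPA in wild-type cells was at 150.1, 153 and 152 CPM with dTAG7, above 136, 145 and 132 CPM with DMSO in every library, with a 95% interval of the log2 change, from the model's SE, of -0.12 to 0.39. The intervals were -0.36 to 0.44 for CEBPB, -0.39 to 0.43 for CEBPG, -0.44 to 0.36 for SPI1 and -0.12 to 0.46 for GFI1. In the MED1 line they were -0.08 to 0.44 for CEBPA and -0.10 to 0.49 for GFI1, and in the MED31 line -0.44 to 0.12 and -0.47 to 0.11. Across the 60 tests of a gene in a treatment, 30 were called on the spike-in scale and 20 under TMM, and all were falls.

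The dTAG7 effect in a tagged line was then set against that of dTAG7 in wild-type cells, which carry no tag. All 9 differences share the wild-type libraries. In the CDK9 line all 5 members fell by more than in wild type, from a difference of log2 -3.51 ± 0.40 for SPI1 to -5.29 ± 0.43 for CEBPB, where 93.9% of genes did so, and 4 of 5, without SPI1 (-0.60 ± 0.40, adjusted p = 0.244), under TMM, where 23% did so. In the MED14 line all 5 fell by more, against 57.1% of genes: SPI1 by log2 -1.86 ± 0.36 (adjusted p = 1.45e-05), GFI1 by -1.63 ± 0.22 (adjusted p = 1.15e-08), CEBPA by -1.29 ± 0.19 (adjusted p = 9.91e-08), CEBPB by -0.92 ± 0.29 (adjusted p = 0.00532) and CEBPG by -0.75 ± 0.31 (adjusted p = 0.0318). Under TMM, where 10.3% of genes fell by more, SPI1, GFI1 and CEBPA were called, CEBPB was not (-0.14 ± 0.25, adjusted p = 0.765), and CEBPG turned to 0.03 ± 0.24 (adjusted p = 0.966). The CEBPG call also ended when any 1 of 8 of the 12 libraries was left out: MED14 DMSO B or C, MED14 dTAG7 A or C, wild-type DMSO A or C, or wild-type dTAG7 A or C (log2 -0.76 to -0.65, adjusted p from 0.0516 to 0.0899).

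GFI1 also fell by more than in wild type in the MED10 line (difference log2 -1.13 ± 0.21, adjusted p = 1.14e-04), where 14.1% of genes did so, and kept the call under TMM (-0.84 ± 0.16, adjusted p = 2.10e-04; 4.81% of genes). In the MED6 line it did so on the spike-in scale alone (log2 -0.76 ± 0.21, adjusted p = 0.0166; 10.9% of genes), and the call ended without MED6 dTAG7 A or wild-type DMSO C (log2 -0.73 to -0.54, adjusted p from 0.0518 to 0.1102). For GFI1 the MED12 and MED28 differences were called under TMM only (-0.60 ± 0.16, adjusted p = 0.0238, and -0.57 ± 0.16, adjusted p = 0.03799), where 2.23% and 1.4% of genes fell by more. On the spike-in scale they were -0.66 ± 0.21 (adjusted p = 0.107; log2 -0.81, adjusted p = 0.01996 without MED12 DMSO B) and -0.72 ± 0.21 (adjusted p = 0.0579; log2 -0.80, adjusted p = 0.0452 without wild-type dTAG7 B), where 1.62% and 1.82% of genes were called. The SPI1 difference passed when 1 library was left out in the MED10 line (dTAG7 C, log2 -1.04, adjusted p = 0.0448) and in the MED6 line (dTAG7 B, dTAG7 C or wild-type DMSO B, log2 -0.95 to -0.94, adjusted p from 0.04398 to 0.0461), and the CEBPA difference in the MED6 line did so without dTAG7 B or C (log2 -0.57 to -0.57, adjusted p from 0.0435 to 0.04596). With all libraries these MED6 differences were -0.83 ± 0.31 for SPI1 (adjusted p = 0.0694) and -0.51 ± 0.19 for CEBPA (adjusted p = 0.0694). Without dTAG7 A, which stood apart, they were smaller, at log2 -0.62 (adjusted p = 0.273) for SPI1 and -0.39 (adjusted p = 0.231) for CEBPA. No member was called in the MED26, MED31 or MED1 line, where 1.31%, 0.607% and 0% of genes fell by more, while DESeq2 called 1 member in the MED26 line and 0 in the other two. An unadjusted edgeR p under 0.05 was found for 1, 0 and 0 members there.

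**Figure D4:**
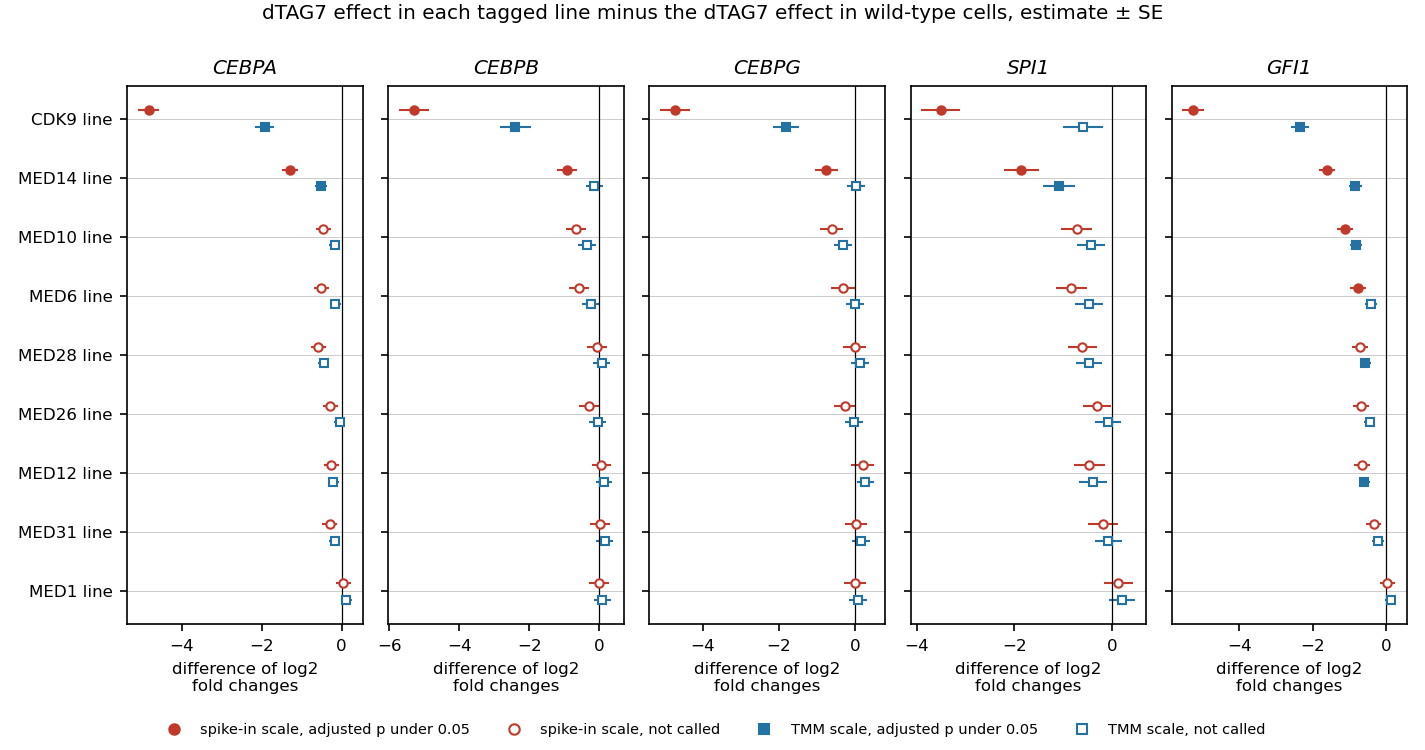
Difference between the dTAG7 effect in each tagged line and the dTAG7 effect in wild-type cells, as a difference of log2 fold changes with SE, on the spike-in scale (circles) and under TMM (squares), filled where the adjusted p was under 0.05. In the MED14 row all 5 circles are filled, and of the squares those of CEBPA, SPI1 and GFI1.

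A single test asked whether the dTAG7 effect was equal in the 8 Mediator lines. It was called for GFI1 (F = 9.89, adjusted p = 8.86e-07), CEBPA (F = 8.04, adjusted p = 1.02e-05), SPI1 (F = 5.15, adjusted p = 7.17e-04) and CEBPB (F = 3.34, adjusted p = 0.0133), each on 7 degrees of freedom, and not for CEBPG (F = 2.38, adjusted p = 0.0668). Of all genes 46.2% were called. Under TMM, where 12.4% were called, GFI1 (adjusted p = 7.47e-05) and CEBPA (adjusted p = 0.0134) remained, while SPI1 (adjusted p = 0.0916) and CEBPB (adjusted p = 0.589) did not. CEBPG passed the threshold without MED6 dTAG7 A, which stood apart, and also without MED6 dTAG7 B or C, MED12 DMSO A or MED28 DMSO A (F from 2.72 to 4.05, adjusted p from 0.00334 to 0.0358).

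The MED14 line and CDK9 line effects differed for all 5 members on the spike-in scale, each falling less in the MED14 line, as did 88.3% of all genes. The difference of log2 changes was 4.36 ± 0.44 for CEBPB, 3.98 ± 0.41 for CEBPG, 3.64 ± 0.31 for GFI1, 3.54 ± 0.28 for CEBPA and 1.65 ± 0.48 for SPI1 (adjusted p = 0.00136). SPI1 was the exception under TMM: its difference turned to -0.49 ± 0.47 (adjusted p = 0.438), while the other 4 members stayed positive and called (adjusted p at most 3.90e-05), as were 20.1% of genes.

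Between the compounds given to wild-type cells, at unequal doses, 4 members were lower with 100 nM dBET6 than with 250 nM THAL-SNS-032 on the spike-in scale, where 53.4% of genes were lower. The difference was -1.46 ± 0.45 for CEBPG (adjusted p = 0.005401), -1.36 ± 0.46 for CEBPB (adjusted p = 0.0109), -1.35 ± 0.32 for GFI1 (adjusted p = 3.97e-04) and -1.01 ± 0.28 for CEBPA (adjusted p = 0.00181), though CEBPA libraries overlapped. That of SPI1 was -0.45 ± 0.41 (adjusted p = 0.359). Without THAL-SNS-032 A the CEBPB call ended (log2 -0.93, adjusted p = 0.137). Under TMM no member was called, with unadjusted p under 0.05 for 0 of 5, and 4.62% of genes were called in either direction. The CDK9 line with dTAG7 and wild-type cells with THAL-SNS-032, which differ in compound and dose, gave values that were not called apart on the spike-in scale for any member (2.64% of genes were), from 0.07 ± 0.62 for SPI1 to -1.80 ± 0.55 for CEBPB (adjusted p = 0.0566), with 3 of 5 members at an unadjusted p under 0.05 and 1 called by DESeq2. Under TMM CEBPB fell by more in the CDK9 line (-1.80 ± 0.52, adjusted p = 0.0273), as did 3.68% of genes. Leaving out THAL-SNS-032 B brought the CEBPB difference (log2 -2.18, adjusted p = 0.0141) and the GFI1 difference (log2 -1.30, adjusted p = 0.0172) past the threshold on the spike-in scale.

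Genes related to the members were read from 5 lists written from general knowledge, none of which holds a member. Of 12 tested CEBP relatives and partners (CEBPE is not analysed here), 12 fell with dBET6, 11 with THAL-SNS-032, 12 in the CDK9 line and 11 in the MED14 line. Their median log2 changes were -4.22, -3.53, -3.84 and -0.83, beside -3.67, -2.86, -2.93 and -0.69 for all genes. Of all genes 97.1%, 96.2%, 95.3% and 63.3% fell. Under TMM 6, 6, 8 and 4 of the 12 fell and 1, 1, 0 and 1 rose. Of all genes 23.2%, 16%, 27% and 16.6% fell under TMM, and 18.2%, 14.1%, 21.1% and 13.4% rose. DDIT3, a stress-induced CEBP relative that inhibits its partners, went from 16.4, 25.7 and 20.8 to 0.322, 0.821 and 0.258 CPM in the CDK9 line (log2 -5.67 ± 0.32, adjusted p = 6.24e-25). CEBPD, another family member, went from 24.5, 35.0 and 26.8 to 0.5205, 0.565 and 0.804 CPM with dBET6 (log2 -5.44 ± 0.27, adjusted p = 2.17e-27). TRIB1, a pseudokinase that targets CEBPA protein for degradation, went from 13.4, 16.6 and 13.9 to 2.95, 4.79 and 3.14 CPM in the MED14 line (log2 -2.10 ± 0.22, adjusted p = 1.96e-12).

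Singled out after their values were seen, TRIB1 also fell in the MED10 (log2 -1.33 ± 0.23), MED28 (-0.91 ± 0.20) and MED6 lines (-0.61 ± 0.20), with adjusted p = 9.89e-06, 0.00162 and 0.0232. TMM kept the first 2 calls (log2 -1.12, adjusted p = 2.74e-04, and -0.87, adjusted p = 0.00147). It did not keep that in the MED6 line (-0.33, adjusted p = 0.356), which on the spike-in scale ended without MED6 dTAG7 A (log2 -0.53, adjusted p = 0.148), DMSO A (log2 -0.57, adjusted p = 0.0683) or DMSO C (log2 -0.58, adjusted p = 0.0971). ATF3, a stress-induced leucine zipper gene, was the list's rise in the MED14 line (log2 0.86 ± 0.34, adjusted p = 0.02197) and ATF5 that in the MED26 line (log2 0.56 ± 0.15, adjusted p = 0.0164). ATF4 fell in the MED10, MED12 and MED31 lines by log2 -0.46 ± 0.10, -0.31 ± 0.10 and -0.40 ± 0.10 (adjusted p = 4.60e-04, 0.0488 and 0.0114). Under TMM ATF4 was called in the MED12 line (log2 -0.38, adjusted p = 0.0302) and not in the MED10 (-0.25, adjusted p = 0.145) or MED31 line (-0.37, adjusted p = 0.0529). On the spike-in scale the MED12 call ended without DMSO B or dTAG7 C, which stood apart (log2 -0.24, adjusted p = 0.272, and -0.28, adjusted p = 0.181), and also without DMSO C, dTAG7 A or dTAG7 B. The MED31 call ended without DMSO B, dTAG7 A or dTAG7 B (log2 -0.38, adjusted p = 0.0761 without dTAG7 A). The ATF3 rise ended without MED14 DMSO A or dTAG7 C (log2 0.67, adjusted p = 0.109, and 0.78, adjusted p = 0.0714). The ATF5 rise ended without MED26 DMSO A, dTAG7 A or dTAG7 C (log2 0.42, adjusted p = 0.168 without DMSO A). Both rises held under TMM (log2 1.55 and 0.71).

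The amino acid response genes, which ATF4 and CEBPG dimers are known to switch on, had 18 tested members. All 18 fell with dBET6, with THAL-SNS-032 and in the CDK9 line, with medians of -3.49, -2.82 and -2.96 beside -3.67, -2.86 and -2.93 for all genes, and 5, 5 and 6 fell under TMM while 3, 2 and 2 rose. Of all genes 97.1%, 96.2% and 95.3% fell in these comparisons, and 23.2%, 16% and 27% under TMM. The shares that rose under TMM were 18.2%, 14.1% and 21.1%. In the MED14 line 14 fell and 4 were not called (median -0.88), and under TMM 7 fell and 3 rose. Of all genes 63.3% fell in the MED14 line, and 16.6% under TMM, where 13.4% rose. STC2, a secreted glycoprotein, fell the most of the list in this line, from 33.2, 30.5 and 34.7 to 3.35, 6.22 and 3.87 CPM (log2 -2.98 ± 0.27, adjusted p = 1.86e-14, TMM -2.30). TRIB3, a pseudokinase that feeds back on ATF4, went from 42.1, 38.3 and 43.99 to 10.8, 9.57 and 13.5 CPM (log2 -1.84 ± 0.19, adjusted p = 1.45e-12; TMM -1.15). In the MED10 line 8 of the 18 fell and 1 rose, against 19% of all genes lower, and under TMM 5 fell and 1 rose, against 10%. In the MED6 line 6 fell, against 18.4% of all genes. There 2 fell under TMM, against 3.66%, and 2 fell without dTAG7 A, against 5.89%. In each of the other Mediator lines at most 3 fell, where at most 4.07% of all genes did. STC2, chosen after its values were seen, fell in the MED10, MED28, MED12 and MED6 lines as well (log2 -1.95 ± 0.25, -1.28 ± 0.23, -1.11 ± 0.22 and -0.98 ± 0.23), and under TMM (log2 -1.73, -1.23, -1.14 and -0.72). Its MED6 call ended without dTAG7 A (log2 -0.73, adjusted p = 0.0539).

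Among 16 tested ETS relatives and partners of SPI1 (IRF4 and IRF8 are not analysed here), 15 fell and 1 rose with dBET6, and 14 fell with THAL-SNS-032, 15 in the CDK9 line and 14 in the MED14 line. Of all genes 97.1%, 96.2%, 95.3% and 63.3% fell there. The rise was that of JUN, an AP-1 subunit that binds PU.1, from 7.43, 15.1 and 9.52 to 33.5, 25.99 and 30.8 CPM (log2 1.53 ± 0.22, adjusted p = 3.61e-09). ERG, an ETS factor of stem and progenitor cells, went from 41.8, 50.3 and 51.5 to 7.88, 8.62 and 12.1 CPM in the MED14 line (log2 -2.32 ± 0.22, adjusted p = 1.08e-13), and ETV6, an ETS repressor, from 166, 218 and 208 to 37.2, 46.4 and 44.5 CPM (log2 -2.22 ± 0.15, adjusted p = 2.66e-19). Both also fell under TMM (-1.63 and -1.54). ETV6 was called lower in the MED10, MED28, MED6, MED12 and MED31 lines too (log2 -1.44 ± 0.14, -0.92 ± 0.14, -0.79 ± 0.14, -0.74 ± 0.14 and -0.74 ± 0.14), as seen after the fact. TMM called all 5 as well (log2 -1.23, -0.88, -0.52, -0.78 and -0.70). These 5 calls held when any 1 library of the line was left out. Without MED6 dTAG7 A the MED6 value was log2 -0.71, adjusted p = 0.00101. Over the list 5 of 16 fell and 1 rose in the MED10 line, 3 fell in the MED6 line, 2 in the MED28 line and 1 in the MED31 line. Of all genes 19%, 18.4%, 4.07% and 2.61% fell in these lines. In the MED12 line 2 fell and 1 rose, against 3.4% of all genes lower. The MED10 rise was JUN (log2 0.97 ± 0.27, adjusted p = 0.00553; TMM 1.17), a call that ended without DMSO C (log2 0.71, adjusted p = 0.0828). The MED12 rise was ETS1, the founding ETS factor (log2 0.78 ± 0.22, adjusted p = 0.0265; TMM 0.76), a call that ended without DMSO B, which stood apart (log2 0.55, adjusted p = 0.228), dTAG7 C, which also did (log2 0.70, adjusted p = 0.132), or dTAG7 A. ETS2, another ETS activator, fell from 198, 203 and 193 to 7.61, 10.3 and 9.82 CPM in the CDK9 line (log2 -4.49 ± 0.17, adjusted p = 2.20e-32). The list's median in the MED14 line was -0.80, beside -0.69 for all genes. Under TMM 8, 4, 8 and 4 of the 16 fell with dBET6, with THAL-SNS-032, in the CDK9 line and in the MED14 line. There 1, 2, 4 and 2 rose, and of all genes 23.2%, 16%, 27% and 16.6% fell and 18.2%, 14.1%, 21.1% and 13.4% rose. In the MED10, MED6, MED28, MED31 and MED12 lines 4, 2, 2, 1 and 4 fell under TMM. Of all genes 10%, 3.66%, 4.34%, 3.02% and 5.7% fell in those lines. Also, 2 rose in each of the MED10, MED12 and MED26 lines under TMM, beside 8.06%, 3.06% and 0.97% of genes.

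Of the 14 tested genes of the GFI1 relative GFI1B, the corepressor subunits and known targets, 14 fell with dBET6 and with THAL-SNS-032, 13 in the CDK9 line and 9 in the MED14 line. Of all genes 97.1%, 96.2%, 95.3% and 63.3% fell. Under TMM 2, 4 and 4 of the 14 fell with dBET6, with THAL-SNS-032 and in the CDK9 line, while 1, 1 and 4 rose. Of all genes 23.2%, 16% and 27% fell under TMM in these 3 comparisons, and 18.2%, 14.1% and 21.1% rose. In the MED14 line the list's median of -0.68 lay beside -0.69 for all genes. Under TMM 1 fell and 4 rose there, against 16.6% and 13.4% of all genes. That fall was GFI1B, the erythroid and megakaryocyte counterpart of GFI1, from 14.8, 14.1 and 12.2 to 3.35, 2.39 and 2.18 CPM (log2 -2.31 ± 0.37, adjusted p = 2.25e-07; TMM -1.63, adjusted p = 1.46e-04). ID1, an inhibitor of helix-loop-helix factors, went from 26.9, 37.2 and 42.8 to 0.694, 0.565 and 1.41 CPM with dBET6 (log2 -5.34 ± 0.39, adjusted p = 1.40e-19), and RCOR1, the scaffold of CoREST, from 75.4, 67.1 and 57.6 to 4.93, 4.93 and 3.88 CPM in the CDK9 line (log2 -3.81 ± 0.17, adjusted p = 5.61e-30). In the MED10 line 2 of the 14 fell and 1 rose, against 19% of all genes lower, and in the MED6 line 3 fell and 1 rose, against 18.4%. Under TMM 0 fell in either line, while 5 rose in the MED10 line and 1 in the MED6 line. Of all genes 10% and 3.66% fell under TMM in these 2 lines, and 8.06% and 2.89% rose. Without MED6 dTAG7 A, 1 of the 14 fell in the MED6 line, against 5.89% of all genes. The rises were PHF21A, a CoREST complex subunit, in the MED10 line (log2 0.57 ± 0.16, adjusted p = 0.00543; TMM 0.77), and ID2, an inhibitor like ID1, in the MED6 line (log2 0.57 ± 0.16, adjusted p = 0.00749; TMM 0.84). ID2 was not called without DMSO C (log2 0.52, adjusted p = 0.0517). None of the 14 was called on the spike-in scale in the MED12, MED26, MED28, MED31 or MED1 line, where at most 4.07% of all genes fell.

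Effector genes of granulocytes and monocytes, many of them targets of these factors, had 16 of 31 members tested, and the other 15 are not analysed here. Of these, 16 fell with dBET6, 15 with THAL-SNS-032, 15 in the CDK9 line, 5 in the MED14 line, 3 in the MED6 line and 0 in each of the other Mediator lines and in wild-type cells with dTAG7. Their median was -0.57 in the MED14 line, beside -0.69 for all genes, and under TMM it was 0.11. Of all genes 97.1% fell with dBET6, 96.2% with THAL-SNS-032, 95.3% in the CDK9 line, 63.3% in the MED14 line and 18.4% in the MED6 line. In the other Mediator lines at most 19% fell. Under TMM 2, 2 and 1 of the 16 fell with dBET6, with THAL-SNS-032 and in the CDK9 line, while 2, 1 and 5 rose. Of all genes 23.2%, 16% and 27% fell under TMM in these 3 comparisons, and 18.2%, 14.1% and 21.1% rose. Under TMM 1 of the 16 fell and 1 rose in the MED14 line, against 16.6% and 13.4% of all genes. In the MED6 line 0 were called under TMM, where 3.66% of all genes fell. The MED6 falls were MPO, the neutrophil peroxidase, NCF4 and CD33 (TMM adjusted p = 0.137, 0.391 and 0.248). Without dTAG7 A only NCF4 was called (log2 -0.43, adjusted p = 0.0307). NCF4, a subunit of the phagocyte oxidase, went from 105, 109 and 119 to 45.9, 45.96 and 52.7 CPM in the MED14 line (log2 -1.20 ± 0.12, adjusted p = 1.28e-12; TMM -0.51, adjusted p = 1.03e-04). CD33, a lectin of myeloid cells, went from 17.6, 18.9 and 13.02 to 5.91, 7.18 and 8.71 CPM (log2 -1.20 ± 0.22, adjusted p = 5.05e-06), and its TMM change of -0.52 had an adjusted p of 0.0524. By the same rule BATF3, JDP2, IRF1, IRF2, ELF4, PHF21A and ID2 were among the falls in 1 or more of the 4 comparisons, BATF3 with 1 read left over the 3 treated libraries of the CDK9 line.

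Across the 22 group means of TMM-scaled log2 CPM, CEBPG and GFI1 moved most alike among the members (Pearson r = 0.919), followed by CEBPG with CEBPB (0.916) and GFI1 with CEBPA (0.902). The neighbours CEBPA and CEBPG on chromosome 19 had r = 0.848. SPI1 was least like the rest, with r from 0.183 with CEBPB to 0.517 with GFI1, and it had the lowest counts of the 5 (median 46.0 per library). The group means share libraries, depth and the 3 groups of very low mRNA, so these values are descriptions. Of 9907 genes compared, those most like GFI1 were NOL11 (r = 0.9804), OLIG2 (r = 0.9797), MPHOSPH10 (r = 0.9795). Those most like CEBPA were PKMYT1 (r = 0.935), RPS6KA1 (r = 0.933), PRKCD (r = 0.926), those most like CEBPB FAM118B (r = 0.9705), RRAGA (r = 0.9698), ADPRHL2 (r = 0.969), those most like CEBPG DOLPP1 (r = 0.982), PRUNE1 (r = 0.978), PAFAH1B2 (r = 0.974) and those most like SPI1 COLGALT1 (r = 0.901), ANGPT1 (r = 0.897), SLC29A1 (r = 0.894).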

How the data were processed

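Gene-level counts from 66 KBM7 libraries were used as the authors deposited them. Per the submitters' processing notes, STAR 2.5.2b, HTSeq 0.6.0 and bedtools 2.26.0 were used with hg38. Per the labels' protocols, spike-in RNA (ERCC and SIRV) was added to each lysate in equal amounts. The deposited count table holds 13331 genes and 44 spike-in entries. The authors also deposited a loess-normalised table on a linear signal scale, which served as an alternative only.

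Identifiers were named from GENCODE release 29 (13297 of 13331 matched). edgeR 4.0.16 (R 4.3.3) fitted a quasi-likelihood model with 1 mean per group over all 66 libraries (44 residual degrees of freedom), with spike-in totals as library sizes, after filterByExpr (12515 genes; 12892 under TMM). The SE of a log2 fold change was its size over the root of the F statistic, and p-values were adjusted by Benjamini-Hochberg over all tested genes. Alternatives were TMM, median-of-ratios, no filter, a filter of 10 counts in 22 libraries, a replicate block, the libraries of the comparison alone, DESeq2 1.42.0 with spike-in size factors, limma 3.58.1 on log2(loess value + 1), and each library left out, which refitted the contrasts that hold its group. The edgeR step was tested on simulated data.

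Members and lists were chosen with earlier results of these data known. Named list genes are, in the dBET6 and THAL-SNS-032 comparisons and in those of the CDK9 line and the MED14 line, up to 2 with the largest falls and 2 with the largest rises that were called, did not overlap between treatments and had a mean of at least 5 CPM; 1 of them is not reported here. Genes most like a member are the 3 with the highest Pearson r over 22 group means of TMM log2 CPM (prior count 2). Python 3.11.15 read the sequence tables. All counts are of reads. SE and intervals rest on a spread between libraries of a group that was estimated over all 22 groups together. They do not give the spread of the compared groups alone.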

Additional observations from a re-analysis of the deposited data

Results flagged for a closer look

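Differences between the effects of 2 groups passed the edgeR test of the difference itself for the following values, all as log2 differences on the spike-in scale. Against the dTAG7 effect in wild-type cells, the CDK9 line effect differed by -4.84 for CEBPA, -5.29 for CEBPB, -4.74 for CEBPG, -3.51 for SPI1 and -5.26 for GFI1. The MED14 line effect differed by -1.29 for CEBPA, -0.92 for CEBPB, -0.75 for CEBPG, -1.86 for SPI1 and -1.63 for GFI1. GFI1 alone also differed in the MED10 line, by -1.13, and in the MED6 line, by -0.76. Of all genes 93.9%, 57.1%, 14.1% and 10.9% fell by more than in wild type in the CDK9, MED14, MED10 and MED6 lines. The MED6 call of GFI1 ended without MED6 dTAG7 A, which stood apart (log2 -0.54, edgeR adjusted p = 0.1102), and under TMM. The MED14 call of CEBPG ended without any 1 of 8 libraries and under TMM. The members fell less in the MED14 line than in the CDK9 line, with differences of log2 change of 3.54 for CEBPA, 4.36 for CEBPB, 3.98 for CEBPG, 1.65 for SPI1 and 3.64 for GFI1. So did 88.3% of all genes. The dTAG7 effect was unequal among the 8 Mediator lines for CEBPA (F = 8.04), CEBPB (F = 3.34), SPI1 (F = 5.15) and GFI1 (F = 9.89). It was so for 46.2% of all genes, and CEBPB and SPI1 were not called under TMM. Every group held 3 libraries, too few for a search for single outlying values.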

How the results depend on the processing

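The members were called lower in 30 of 60 treatment tests, in 20 under TMM, 19 under median-of-ratios scaling, 23 with limma on the loess values, 28 with the replicate block, and in 29 to 32 under the other 4 alternatives. No alternative called a rise. Leaving out 1 library gave 27 to 32. Of all genes, the share lower ran from 0% in the MED1 line to 97.1% with dBET6 on the spike-in scale, and reached 27% under TMM. The replicate block ended the calls of CEBPG in the MED10 line (adjusted p = 0.0549) and GFI1 in the MED12 line (adjusted p = 0.0563). The letters A, B and C did not pair the libraries: over 36 pairs, r between the deviations of libraries with one letter ran from -0.241 to 0.0643, and 10 of 36 were closest to their own letter. Of 45 DMSO tests 7 were called, 3 with the loess values and 4 to 7 with 1 library left out. The effect differed among Mediator lines for 4 members, for 2 with TMM and 2 with median-of-ratios scaling, and for 4 to 5 with 1 library left out. It did so for 46.2% of all genes, and for 12.4% with TMM. The 3 remaining contrasts gave 9 calls, 5 under TMM, 5 under median-of-ratios scaling and 8 to 11 with 1 library left out. The spike-in scale called 53.8% of all genes between dBET6 and THAL-SNS-032 and 88.4% between the MED14 and CDK9 lines. Between the CDK9 line and THAL-SNS-032 it called 2.64%. Against the wild-type dTAG7 effect 12 of 45 were called, 18 by DESeq2. The share of all genes called by edgeR ran from 0% in the MED1 line to 94% in the CDK9 line. The CEBPG difference between the MED14 line and wild type turned to 0.026 with TMM and 0.067 with median-of-ratios scaling, and the SPI1 difference between the MED14 and CDK9 lines to -0.49 and -0.56. The scalings differ by construction in whether a fall of most genes counts as a fall. Among values called under neither setting, 12 changed sign under TMM, 13 under median-of-ratios scaling and 3 with the loess values. Read numbers limit all 5 members in the CDK9 and BET degrader groups. In the CDK9 line with dTAG7 the 3 libraries held 9 reads of CEBPB, 19 of SPI1, 32 of CEBPG, 33 of GFI1 and 34 of CEBPA. With dBET6 the reads in that order were 14, 24, 25, 33 and 44, and with THAL-SNS-032 32, 29, 61, 73 and 78.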
